A study of Mus musculus with 18 samples.

Results

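Unsorted GL261 tumours from WT mice were compared with unsorted GL261 tumours from Pfp/Rag2-/- mice, 3 libraries of each, which are 6 of the 18 libraries of the series. Genes were kept where the normalized count reached 10 in 3 or more of these 6 libraries, which left 15448 of the 48795 genes in the table. A normalized count is the number of reads on a gene divided by the size factor of the library, and it is the level given throughout. GL261 is a mouse glioma line, and the injected cells carried GFP, a fluorescent protein used to sort them. Both hosts were of the C57BL/6 strain. The WT mice carried no mutation named in the labels, and the Pfp/Rag2-/- mice lacked the pore-forming perforin with which lymphocytes kill (Pfp, gene symbol Prf1), together with Rag2, which T and B cells need to assemble their antigen receptors. Tumours came from 6 symptomatic mice of each host and were dissociated with collagenase. The unsorted suspensions held tumour and non-tumour cells. Other libraries were made from sorted GFP+ tumour cells of both hosts, from sorted GFP- cells of WT tumours and from cultured GL261 cells. These are used below to show in which cells a gene stood higher and to compare the host effect with that in GFP+ cells. All 18 libraries also enter 1 alternative fit. Whether each library holds 1 mouse or a pool, and the age of the mice, are not in the labels, so p-values measure the spread between these libraries, which may be technical in part.

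T cells recognise peptides on MHC molecules, and activated T cells and NK cells kill through perforin and granzymes and secrete interferon gamma. Interferon gamma acts through the kinases Jak1 and Jak2 and induces Irf1, Ciita, MHC genes, chemokines that draw further T cells, and families of GTPases. Type I interferons act through Stat2 and Irf9 on a set of antiviral genes that overlaps with it only in part. A host without Rag2 has no mature T or B cells but retains NK cells and myeloid cells, and here those NK cells also lack perforin.

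Recovered depth was 19736255 to 20631674 reads per library, and size factors were 1.08 to 1.15. On the log2 scale the libraries of 1 host correlated across genes at r between 0.975 and 0.992, and libraries of different hosts at 0.924 to 0.95; genes are not independent replicates. Prf1 read 109, 99 and 139 in WT and 7.11, 13.6 and 16.2 in Pfp/Rag2-/-. Rag2 had no read in WT and 4.44, 6.34 and 3.61 in Pfp/Rag2-/-, and Rag1 had none in any library. The gene counts cover whole genes, so these reads do not check the deleted parts. WT library 3 and Pfp/Rag2-/- libraries 1 and 2 held choroid plexus RNA, shown by Ttr, the transthyretin that choroid plexus secretes, at 37.8, 15.3 and 5083 in WT and 7512, 2327 and 14.4 in Pfp/Rag2-/-. Nes, Sox2 and Mki67, markers of the glioma cells, summed to 18883, 18312 and 17053 in WT and 18897, 19796 and 21081 in Pfp/Rag2-/-, lower in every WT library, with 18883 in the highest WT and 18897 in the lowest Pfp/Rag2-/- library. The second principal component (16.5% of the variance) set WT library 3 and Pfp/Rag2-/- library 1 apart from the others, and the first (65.7%) separated the hosts.

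Of the 15448 genes 4620 (29.9%) differed between hosts, 2326 (15.1%) higher in WT tumours and 2294 (14.8%) lower, by limma on log2(normalized count + 1) at a Benjamini-Hochberg adjusted p under 0.05. At least a 2-fold difference as well was found for 936 genes higher in WT (6.06%) and 619 lower (4.01%). Every log2 difference below is WT minus Pfp/Rag2-/- on the log2(normalized count + 1) scale, which understates the change of genes with few reads. The median over all genes tested was -0.05. The hosts did not overlap for 3564 genes with WT higher (23.1%) and 3916 with WT lower (25.3%), so a lack of overlap was common. Genes of T cells, macrophages, antigen presentation and the interferon gamma response stood higher in WT. Many type I interferon-stimulated and immediate early genes, some oligodendrocyte genes and the clustered beta protocadherins stood lower. Without Pfp/Rag2-/- library 2 the counts were 1297 higher and 983 lower, and without both WT library 3 and Pfp/Rag2-/- library 1 they were 939 and 922. How many cells of a type were present and how much RNA each held cannot be told apart in unsorted tumours: fewer cells and less RNA per cell give the same value.

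**Figure D1:**
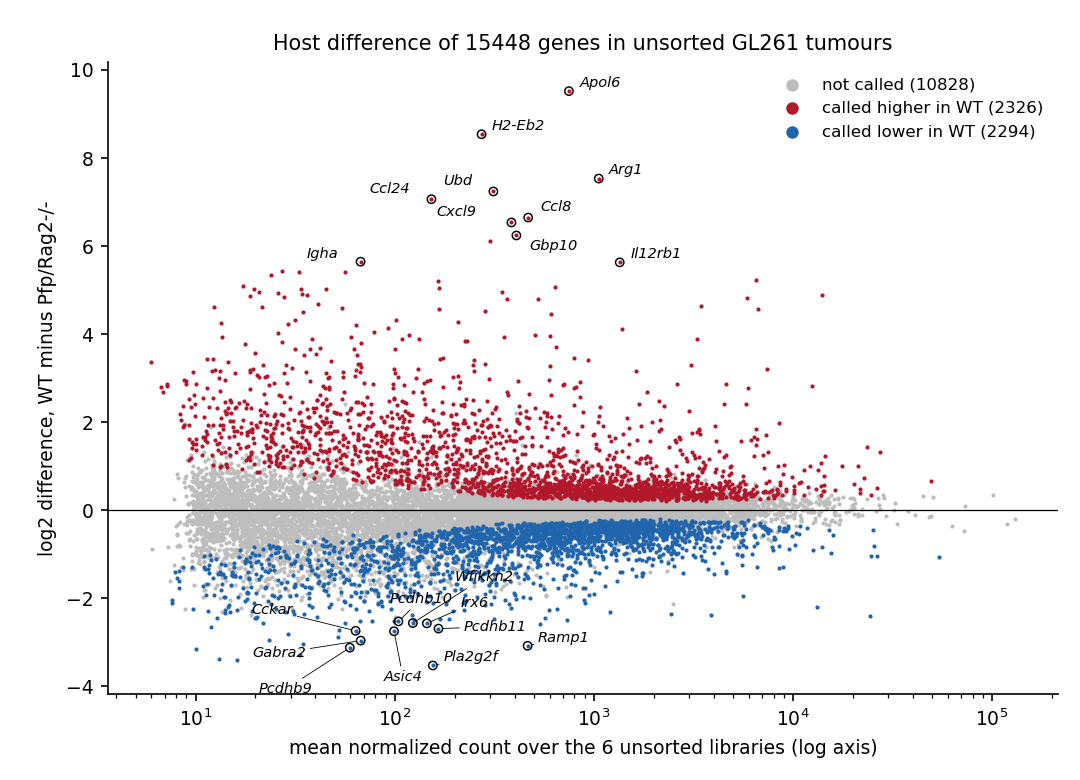
Each point is 1 of the 15448 genes tested. The x axis is the mean normalized count of the 6 unsorted libraries on a log scale, the y axis is the log2 difference, WT minus Pfp/Rag2-/-. Red points are the 2326 genes called higher in WT, blue the 2294 called lower, grey the 10828 not called; the 20 ringed genes are the 10 with the largest difference in each direction among called genes whose groups did not overlap. The largest differences lie on the WT side.

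The largest difference on the WT side belonged to Apol6, a member of the apolipoprotein L family, at chr15:77044729-77057106, plus strand. Apol6 read 1041, 1724 and 1735 in WT and 0, 1.81 and 1.8 in Pfp/Rag2-/- (log2 difference 9.52 ± 0.45 SE, adjusted p = 7.06e-05). It was close to unread in every Pfp/Rag2-/- library and above 1000 in every WT library. In the sorted cells of WT tumours it stood at 1109 ± 103 (SD, n = 3) in GFP+ cells and 54 ± 45.7 (SD, n = 3) in GFP- cells, so its level was higher in the tumour fraction. The other 9 of the 10 with the largest rise were H2-Eb2, Arg1, Ubd, Ccl24, Ccl8, Cxcl9, Gbp10, Igha and Il12rb1. H2-Eb2, a beta chain of MHC class II, read 344, 616 and 677 in WT and 0, 0 and 1.8 in Pfp/Rag2-/- (adjusted p = 9.38e-05), a ratio of reads of 917-fold, 95% interval 253 to 7575 by the exact Clopper-Pearson method for counting error only. Ubd encodes the ubiquitin-like protein FAT10 and read 452, 704 and 715 in WT and 2.67, 5.43 and 1.8 in Pfp/Rag2-/- (log2 difference 7.24 ± 0.36 SE, adjusted p = 7.06e-05). Gbp10, a guanylate-binding GTPase, read 458, 956 and 1010.1 in WT and 11.6, 5.43 and 11.7 in Pfp/Rag2-/- (log2 difference 6.24 ± 0.39 SE, adjusted p = 0.000133). Apol6, H2-Eb2, Ubd and Gbp10 had in common that WT library 1 was the lowest of the WT group and that no Pfp/Rag2-/- library reached 12.

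The order of the WT libraries differed in other genes of the 10. Arg1, arginase, which hydrolyses arginine, read 4181, 806 and 1345 in WT and 14.2, 5.43 and 6.31 in Pfp/Rag2-/- (log2 difference 7.53 ± 0.61 SE, adjusted p = 0.000336). Its level in sorted GFP- cells was 44586 ± 26974 (SD, n = 3), against 902 ± 682 (SD, n = 3) in GFP+ cells. It was thus a gene of the non-tumour fraction, and without WT library 1 its log2 difference was 6.86. Ccl24, an eotaxin, read 649, 63.9 and 204 in WT and 0.888, 0.906 and 0 in Pfp/Rag2-/- (adjusted p = 0.00111), a ratio of reads of 503-fold, 95% interval 139 to 4161. Ccl8, a chemoattractant of monocytes, read 2499, 86.4 and 218 in WT and 3.55, 2.72 and 1.8 in Pfp/Rag2-/- (log2 difference 6.65 ± 1.10 SE, adjusted p = 0.00491). WT library 1 was the highest in all 3 of these genes, at least 3-fold above the other WT libraries, while the hosts still did not overlap. Left out in turn, WT libraries 1 and 2 moved the log2 difference of Ccl24 to 6.23 and 7.89 and that of Ccl8 to 5.25 and 7.67. Cxcl9, a chemokine that draws T cells through Cxcr3, read 454, 1051 and 792 in WT and 8.0, 5.43 and 7.21 in Pfp/Rag2-/- (log2 difference 6.54 ± 0.33 SE, adjusted p = 7.06e-05), with WT library 1 the lowest of its group. Il12rb1, a subunit of the receptors for interleukins 12 and 23, read 1836, 3029 and 3085 in WT and 57.8, 43.5 and 53.2 in Pfp/Rag2-/- (log2 difference 5.63 ± 0.22 SE, adjusted p = 3.8e-05). It was read in both fractions of WT tumours, at 1222 ± 163 in GFP- and 1785 ± 135 in GFP+ cells (SD, n = 3 each). Like Cxcl9, Il12rb1 had its lowest WT value in library 1. The last of the 10 was Igha, the constant region of immunoglobulin A, at 37.8, 171 and 192 in WT and 1.78, 0 and 2.71 in Pfp/Rag2-/- (log2 difference 5.64 ± 0.74 SE, adjusted p = 0.00204), and 6.39 without WT library 1.

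On the other side, the largest fall in WT was that of Pla2g2f, a secreted phospholipase A2, at chr4:138750533-138757626, minus strand. Pla2g2f read 9.23, 43.2 and 30.5 in WT and 217, 323 and 310.2 in Pfp/Rag2-/- (log2 difference -3.53 ± 0.52 SE, adjusted p = 0.00302), and differed by -2.91 without WT library 1. Ramp1, the subunit that makes the calcitonin receptor-like receptor respond to calcitonin gene-related peptide, read 97.8, 96.3 and 93.2 in WT and 617, 976 and 912 in Pfp/Rag2-/- (log2 difference -3.08 ± 0.18 SE, adjusted p = 0.000105). The 3 WT libraries lay within 5 normalized counts of each other for Ramp1, and the hosts were far apart for both genes. In sorted GFP+ cells Ramp1 was also lower in WT, at 77.2 ± 10.5 against 646 ± 57.6 in Pfp/Rag2-/- (SD, n = 3 each, log2 difference -3.06 ± 0.13 SE, adjusted p = 3.57e-05). The other 8 were Gabra2, a GABA-A receptor subunit, Asic4, of the acid-sensing channel family, Cckar, a receptor for cholecystokinin, Irx6, an Iroquois homeobox factor, Wfikkn2, a secreted protein with protease-inhibitor domains, and Pcdhb9, Pcdhb10 and Pcdhb11, clustered protocadherins of cell adhesion. Their log2 differences ranged from -3.13 to -2.53. Gabra2 read 12.9, 5.4 and 26.1 in WT and 217, 76.1 and 67.6 in Pfp/Rag2-/-. Wfikkn2 read 47, 25.2 and 25.2 in WT and 374, 128 and 142 in Pfp/Rag2-/-. Pfp/Rag2-/- library 1, the library highest in neuronal RNA, was the highest of all 6 in both.

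Cd3e, Trac and Cd8b1 of the T cell receptor complex were at or near 0 in the Pfp/Rag2-/- tumours and low but present in every WT tumour, while other genes of the list were read in both hosts. Of 20 genes of the T cell receptor complex and its coreceptors 19 were tested, and 16 were higher in WT, none lower. However, 13 of the 19 passed the filter through the WT libraries alone and therefore had to differ, so the count describes these genes and supports nothing further. Cd3e, a chain of the CD3 complex, read 35.1, 48.6 and 43.5 in WT and 0, 0.906 and 1.8 in Pfp/Rag2-/- (adjusted p = 0.000646), a ratio of reads of 47.3-fold, 95% interval 15.8 to 232. Trac, the constant region of the receptor's alpha chain, read 24, 51.3 and 79.2 in WT and 0.888, 0 and 0.902 in Pfp/Rag2-/-. Cd8b1, the beta chain of the killer T cell coreceptor, read 24.9, 30.6 and 55.7 in WT and 0, 0.906 and 0 in Pfp/Rag2-/-. None of the 3 had more than 2 reads in any Pfp/Rag2-/- library. Lck, the kinase bound to the coreceptors, was well read in both hosts, at 326, 309.5 and 374 in WT and 180.3, 165 and 227 in Pfp/Rag2-/- (log2 difference 0.82 ± 0.16 SE, adjusted p = 0.00846). Cd4, the coreceptor of helper T cells, was not called, with 47, 72.9 and 124 in WT and 81.7, 24.5 and 36.1 in Pfp/Rag2-/- (log2 difference 0.84 ± 0.51 SE, adjusted p = 0.247). Pfp/Rag2-/- library 1 lay above the 2 lowest WT libraries for Cd4, so the groups overlapped. In sorted cells of WT tumours Cd4 stood at 2872 ± 86.4 in GFP- and 29.2 ± 31.2 in GFP+ cells (SD, n = 3 each). The defining T cell markers Cd3e, Cd3d, Cd8a and Cd4 summed to 157, 229 and 375 in WT and 83.5, 26.3 and 42.4 in Pfp/Rag2-/-.

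Genes of T cell activation and regulation were also called, 11 of 15 tested, with none lower; 7 of the 15 passed the filter through WT alone, and 7 were higher in the fit of all 18 libraries. Ctla4, an inhibitory receptor, read 42.4, 46.8 and 72.3 in WT and 0, 0.906 and 0 in Pfp/Rag2-/-, a ratio of reads of 181-fold, 95% interval 32 to 7177. Icos, a costimulatory receptor, read 33.2, 72.9 and 108 in WT and 0, 2.72 and 1.8 in Pfp/Rag2-/- (log2 difference 4.90 ± 0.62 SE, adjusted p = 0.00184). Foxp3, the master factor of regulatory T cells, read 10.2, 16.2 and 23.5 in WT and 1.78, 1.81 and 3.61 in Pfp/Rag2-/- (log2 difference 2.34 ± 0.43 SE, adjusted p = 0.00748). All 3 were separated between hosts, with WT library 1 the lowest of its group. Lag3, another inhibitory receptor, read 339, 500.2 and 674 in WT and 353, 278 and 249.8 in Pfp/Rag2-/- and overlapped (log2 difference 0.74 ± 0.25 SE, adjusted p = 0.0655).

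Of 11 tested killing genes 10 were higher in WT and none was lower, and 2 of the 11 passed the filter through WT alone. The count was 4 in the fit of all 18 libraries and 8 without any 1 of WT library 3 and Pfp/Rag2-/- libraries 1 and 2. Ifng, interferon gamma itself, read 21.2, 42.3 and 40 in WT and 0, 0 and 0 in Pfp/Rag2-/-, at least 12.8-fold higher against a floor of 3 reads per library. Gzmb, granzyme B, read 519, 672 and 808 in WT and 41.8, 35.3 and 49.6 in Pfp/Rag2-/- (log2 difference 3.94 ± 0.21 SE, adjusted p = 7.55e-05). Gzma, granzyme A, read 630.1, 427 and 486 in WT and 48, 38 and 67.6 in Pfp/Rag2-/- (log2 difference 3.32 ± 0.25 SE, adjusted p = 0.000246). Granzymes were thus read in every Pfp/Rag2-/- library, where Ifng had none. Fasl, the ligand of the death receptor Fas, read 13.8, 15.3 and 28.7 in WT and 1.78, 1.81 and 3.61 in Pfp/Rag2-/- (log2 difference 2.55 ± 0.42 SE, adjusted p = 0.00494). In WT tumours 11 of 11 of these genes stood at least 4-fold higher in GFP- than in GFP+ cells.

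NK cell genes gave a mixed picture. Of 10 tested, 6 were higher in WT and none lower, 2 in the fit of all 18 libraries, and 3 passed the filter through WT alone. Klrk1, the activating receptor NKG2D, read 326, 464 and 485 in WT and 27.5, 28.1 and 29.8 in Pfp/Rag2-/- (log2 difference 3.83 ± 0.20 SE, adjusted p = 7.06e-05). Klrc1, an inhibitory receptor, read 39.7, 35.1 and 40.9 in WT and 8.88, 6.34 and 4.51 in Pfp/Rag2-/- (log2 difference 2.42 ± 0.31 SE, adjusted p = 0.0019). Both receptors are also known on activated killer T cells. The receptors that define NK cells, Ncr1, Klrb1c and Klre1, were not called. Ncr1 read 11.1, 9.0 and 14.8 in WT and 8.0, 6.34 and 10.8 in Pfp/Rag2-/- (log2 difference 0.43 ± 0.35 SE, adjusted p = 0.384). Klrb1c, which encodes NK1.1, read 28.6, 19.8 and 30.5 in WT and 10.7, 6.34 and 18 in Pfp/Rag2-/- (log2 difference 1.19 ± 0.41 SE, adjusted p = 0.0644). The hosts overlapped for Ncr1 and not for Klrb1c. The 3 summed to 71, 48.6 and 76.6 in WT and 27.5, 39.9 and 42.4 in Pfp/Rag2-/-.

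B cell transcripts were scarce. Of 12 B and plasma cell genes 5 were tested, 3 of which passed the filter through WT alone. In WT 4 were higher and none lower, with 2 higher without Pfp/Rag2-/- library 2 or in the fit of all 18 libraries and 1 lower without WT library 2. Igkc, the constant region of the kappa light chain, read 27.7, 95.4 and 95.8 in WT and 1.78, 5.43 and 3.61 in Pfp/Rag2-/- (log2 difference 3.89 ± 0.56 SE, adjusted p = 0.00294). Jchain, which joins secreted immunoglobulin A or M, read 22.1, 18.9 and 35.7 in WT and 1.78, 1.81 and 3.61 in Pfp/Rag2-/- (log2 difference 2.96 ± 0.40 SE, adjusted p = 0.00217). These immunoglobulin genes were higher in every WT library than in any Pfp/Rag2-/- library. Ms4a1 and Cd79a, which mark B cells before the plasma cell stage, summed to 4.61, 6.3 and 11.3 in WT and 2.67, 1.81 and 1.8 in Pfp/Rag2-/-, with Ms4a1 at 0 in 5 of the 6 libraries.

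**Figure D2:**
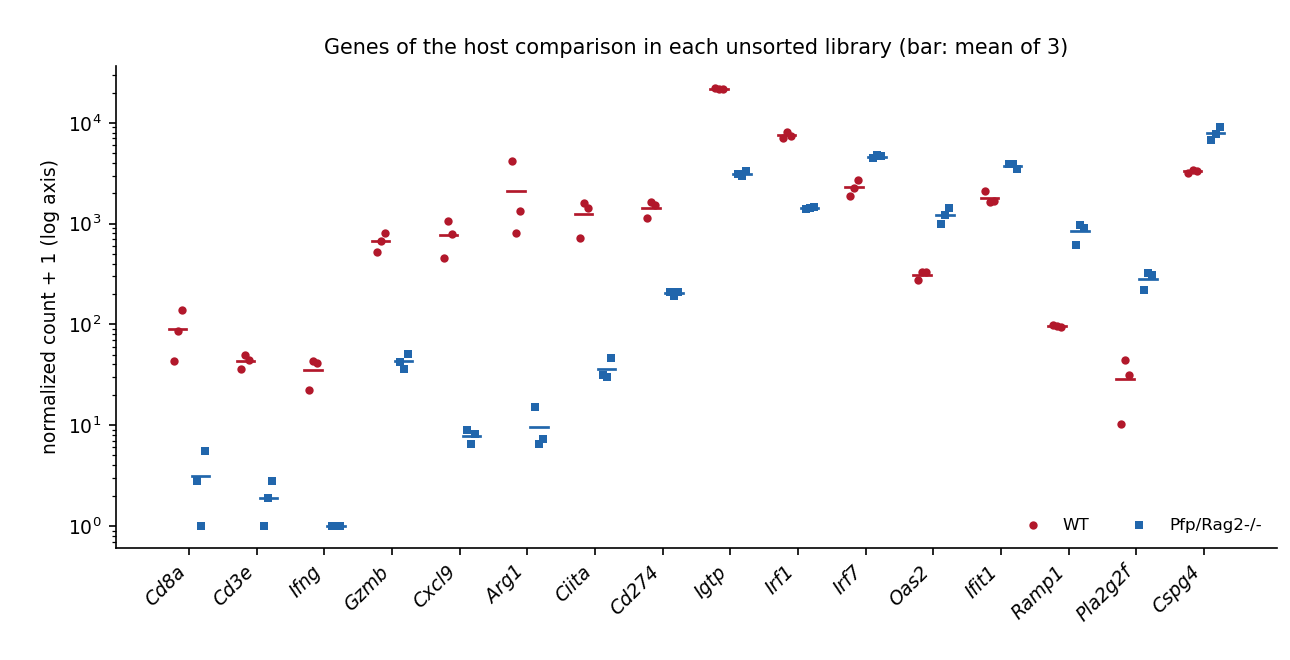
Normalized count + 1 of 16 genes in each unsorted library, on a log axis, in red circles for the 3 WT and blue squares for the 3 Pfp/Rag2-/- libraries, with a bar at the mean of 3. T cell, interferon gamma, MHC class II and checkpoint genes stand higher in WT, Irf7, Oas2, Ifit1, Ramp1, Pla2g2f and Cspg4 lower. The hosts do not overlap in any of these 16 chosen genes. Over all genes tested 23.1% did not overlap with WT higher and 25.3% with WT lower.

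Of 20 genes that macrophages and microglia share, 19 were higher in WT and none lower (11 in the fit of all 18 libraries), with a median log2 difference of 1.69 against -0.05 over all genes. All 20 were at least 4-fold higher in GFP- than in GFP+ cells of WT tumours. Fcer1g, the signalling chain of Fc receptors, read 934, 885 and 1051 in WT and 203, 189 and 229 in Pfp/Rag2-/- (log2 difference 2.20 ± 0.12 SE, adjusted p = 7.06e-05). Adgre1, the F4/80 antigen, read 609.8, 858 and 821 in WT and 183, 139 and 219 in Pfp/Rag2-/- (log2 difference 2.08 ± 0.20 SE, adjusted p = 0.000646). For both genes the lowest WT library stood at least 2-fold above the highest Pfp/Rag2-/- library. Lyz2, a lysozyme of myeloid cells, read 5058, 5088 and 5566 in WT and 1341, 1338 and 1789.7 in Pfp/Rag2-/- (log2 difference 1.83 ± 0.12 SE, adjusted p = 0.000171). C1qa, a chain of the first complement component, read 5574, 4686 and 5442 in WT and 1886, 1438 and 1457 in Pfp/Rag2-/- (log2 difference 1.72 ± 0.13 SE, adjusted p = 0.000237). The hosts did not overlap for any of these 4, and WT libraries spread by less than the gap between hosts. Mertk, a receptor for the uptake of dead cells, was the 1 gene not called, at 330.3, 405 and 305 in WT and 323, 286 and 213 in Pfp/Rag2-/-.

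Genes of homeostatic microglia differed less. Of 12, 5 were higher in WT and none lower, with a median of 0.35; the count was 2 without Pfp/Rag2-/- library 2 or 3 or in the fit of all 18 libraries and 3 without WT library 3. Tmem119, a microglial surface protein, read 2598, 13639.7 and 14211 in WT and 1460.5, 1729 and 1312 in Pfp/Rag2-/- (log2 difference 2.42 ± 0.61 SE, adjusted p = 0.0236). Its call was lost in 5 of 6 fits that each left out 1 library, and it was 3.22 without WT library 1, which stood closest to the Pfp/Rag2-/- values. Tmem119 was read in both fractions of WT tumours, at 3800.4 ± 1543 in GFP- and 4858 ± 2183 in GFP+ cells (SD, n = 3 each). It made up a large part of the summed macrophage and microglia markers, 5597, 17860 and 18678 in WT and 3153, 3078 and 2623 in Pfp/Rag2-/-. The 12 homeostatic microglia genes summed to 68213 in cultured GL261 cells and 39476 in GFP- cells of WT tumours (means). Their sum is thus not particular to microglia. Olfml3, another microglial gene, read 2830.5, 3803 and 3769 in WT and 776, 785 and 939.5 in Pfp/Rag2-/- (log2 difference 2.05 ± 0.14 SE, adjusted p = 0.000161). P2ry12, the purinergic receptor that marks resting microglia, read 199, 192 and 211 in WT and 185, 143 and 114 in Pfp/Rag2-/- (log2 difference 0.47 ± 0.19 SE, adjusted p = 0.107) and overlapped. Fcrls, an Fc receptor-like microglial gene, went the other way without being called, at 175, 269 and 365 in WT and 466, 408 and 457 in Pfp/Rag2-/- (log2 difference -0.78 ± 0.25 SE, adjusted p = 0.0521).

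Of 17 tested genes of monocyte-derived macrophages, 11 were higher in WT and 1, Vcan, was lower, a call lost without both WT library 3 and Pfp/Rag2-/- library 1. The median was 1.99. Mrc1, the mannose receptor CD206, read 1789.8, 503 and 585 in WT and 43.5, 52.5 and 55.9 in Pfp/Rag2-/- (log2 difference 3.98 ± 0.45 SE, adjusted p = 0.00116). Il1rn, the interleukin 1 receptor antagonist, read 257, 331 and 527 in WT and 25.8, 47.1 and 60.4 in Pfp/Rag2-/- (log2 difference 3.05 ± 0.37 SE, adjusted p = 0.00154). Both were several-fold higher in every WT library. Vcan, the proteoglycan versican, which GL261 cells also expressed at 450.4 ± 22.4 in culture (SD, n = 3), read 1795, 1538 and 1251 in WT and 2785, 3108 and 2386 in Pfp/Rag2-/- (log2 difference -0.86 ± 0.15 SE, adjusted p = 0.0063). Chil3, a chitinase-like protein of alternatively activated macrophages, read 2327, 36.9 and 14.8 in WT and 23.1, 39.9 and 13.5 in Pfp/Rag2-/- and was not called (log2 difference 2.20 ± 1.69 SE, adjusted p = 0.356). WT library 1, far above all others for Chil3, was also the highest WT library for Arg1, Mrc1, Ccl8 and Ccl24. Ly6c2 and Ccr2, which mark circulating monocytes, summed to 351, 523 and 614 in WT and 123, 152 and 152 in Pfp/Rag2-/-.

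Of 14 tested dendritic cell genes, 8 were higher in WT and 1, Zbtb46, was lower; 2 of the 14 passed the filter through WT alone. The first count was 4 in the fit of all 18 libraries and without both WT library 3 and Pfp/Rag2-/- library 1. Zbtb46, a factor of conventional dendritic cells, read 85.8, 72.9 and 61.8 in WT and 125, 140.4 and 132 in Pfp/Rag2-/- (log2 difference -0.86 ± 0.18 SE, adjusted p = 0.0126), and its call was lost without Pfp/Rag2-/- library 2. Clec10a, a lectin of conventional dendritic cells and macrophages, read 31.4, 27 and 22.6 in WT and 0.888, 4.53 and 0.902 in Pfp/Rag2-/- (log2 difference 3.36 ± 0.49 SE, adjusted p = 0.00307). Ccr7, the receptor with which dendritic cells and T cells migrate to lymph nodes, read 54.4, 59.4 and 92.3 in WT and 8.0, 7.25 and 22.5 in Pfp/Rag2-/- (log2 difference 2.49 ± 0.45 SE, adjusted p = 0.00712). Irf8, a factor of dendritic cell and monocyte development, read 2665, 4213 and 4034 in WT and 690.3, 523 and 710.5 in Pfp/Rag2-/- (log2 difference 2.49 ± 0.20 SE, adjusted p = 0.000321). For these 3 the hosts did not overlap. Neutrophil genes were scarce, with 3 of 12 tested, and S100a8, S100a9 and Ly6g summed to 72.9, 8.1 and 11.3 in WT and 25.8, 11.8 and 6.31 in Pfp/Rag2-/-.

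Antigen presentation genes were higher in WT for every gene of both MHC lists. All 22 class I genes tested were called, with a median of 1.63; the fewest called with 1 library left out was 21. Psmb9, a proteasome subunit that shapes peptides for class I, read 4601, 4549 and 4693 in WT and 627, 631 and 649 in Pfp/Rag2-/- (log2 difference 2.86 ± 0.06 SE, adjusted p = 2.93e-06). Tap1, of the peptide transporter, read 9637, 12204 and 11970.3 in WT and 3372, 3451 and 3510.1 in Pfp/Rag2-/- (log2 difference 1.70 ± 0.11 SE, adjusted p = 0.000129). B2m, the light chain of class I, read 37116, 38975 and 41859 in WT and 15091, 15479 and 16777 in Pfp/Rag2-/- (log2 difference 1.32 ± 0.11 SE, adjusted p = 0.00039). All 3 were read strongly in both hosts, without overlap. Nlrc5, the class I transactivator, read 3869, 5846 and 4799 in WT and 1334, 1369.6 and 1536 in Pfp/Rag2-/- (log2 difference 1.76 ± 0.15 SE, adjusted p = 0.00039). Of the 22, 18 differed by less than 4-fold between GFP- and GFP+ cells of WT tumours.

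Class II genes differed more. All 12 tested were higher in WT, with a median of 4.34; 2 passed the filter through WT alone, and 10 were called when WT library 3, or either of Pfp/Rag2-/- libraries 2 and 3, was left out. Ciita, the class II transactivator, read 725, 1592 and 1421 in WT and 30.2, 29 and 45.1 in Pfp/Rag2-/- (log2 difference 5.07 ± 0.32 SE, adjusted p = 0.000133). H2-Eb1, a class II beta chain, read 8024, 15231 and 14906 in WT and 299, 251 and 447 in Pfp/Rag2-/- (log2 difference 5.24 ± 0.30 SE, adjusted p = 9.36e-05). Cd74, the invariant chain that occupies class II until peptide is loaded, read 18158, 30610.0 and 32857 in WT and 812, 723 and 1173 in Pfp/Rag2-/- (log2 difference 4.90 ± 0.26 SE, adjusted p = 7.64e-05). For these 3 the lowest WT library stood more than 10-fold above the highest Pfp/Rag2-/- library. Ifi30, a thiol reductase of antigen processing, differed less, at 1136, 1099 and 1262 in WT and 596, 572 and 601 in Pfp/Rag2-/- (log2 difference 0.98 ± 0.08 SE, adjusted p = 0.000396). Of the 12 class II genes, 8 stood at least 4-fold higher in GFP- and 1 in GFP+ cells of WT tumours. In sorted GFP+ cells the 10 class II genes tested had a median difference of 4.05 between hosts, and the 22 class I genes 1.47. The 20 genes that macrophages and microglia share summed to 9435 in WT GFP+ cells against 281 in culture (means). How much of the GFP+ differences came with such RNA was not tested. No class I or class II gene was called for a host effect that differed between unsorted and sorted GFP+ cells, while 2 and 1 had an unadjusted p under 0.05; by that limma test 0.934% of 16161 genes were called, a number that ranged from 0 to 1105 genes with 1 library left out.

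The interferon gamma response genes were higher without exception. All 25 tested of 26 were called higher in WT, with every single library left out as well, and 23 without both WT library 3 and Pfp/Rag2-/- library 1; the median was 2.81, and 2 passed through WT alone. Igtp, an immunity-related GTPase, read 22234, 21785 and 21727 in WT and 3079, 2990.2 and 3322 in Pfp/Rag2-/- (log2 difference 2.81 ± 0.08 SE, adjusted p = 7.69e-06). Irgm2, another of these GTPases, read 7119.5, 9409.5 and 8242 in WT and 2641, 2636 and 3022 in Pfp/Rag2-/- (log2 difference 1.57 ± 0.12 SE, adjusted p = 0.000261). Gbp2, a guanylate-binding protein, read 13239, 13724 and 13241 in WT and 1465, 1516 and 1373 in Pfp/Rag2-/- (log2 difference 3.21 ± 0.07 SE, adjusted p = 2.93e-06). The 3 WT libraries of Igtp and of Gbp2 lay close together, far above every Pfp/Rag2-/- library. Gbp4 read 4956, 7273 and 7669.6 in WT and 255, 253 and 278 in Pfp/Rag2-/- (log2 difference 4.63 ± 0.16 SE, adjusted p = 2.24e-05). The smallest difference was that of Gbp7, 0.62, and the largest that of Apol6. Of the 25, 7 stood at least 4-fold higher in GFP+ and 4 in GFP- cells of WT tumours, where 18 of 19 T cell genes and all 20 macrophage genes stood at least 4-fold higher in GFP- cells. In sorted GFP+ cells their median was 2.77, and by limma's test of the difference none of the 25 was called for a differing host effect, while 10 had an unadjusted p under 0.05. Igtp and Irgm2 overlap on the same strand in GENCODE vM21, and Tgtp1 and Tgtp2, the Gbp genes and the class I genes are near copies of each other, so reads may have been split between them in a way the sources used here do not give.

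The promoters of GTPase genes of this list shared letters. Promoter sequence (RefSeq, GRCm38.p6, 250 bases before the start) was matched for 15 of the 26 genes, as 16 promoters. TTCNNNGAA, the interferon gamma activated site (GAS), was found in 8 of the 16 (50%) on either strand, and the core of the interferon-stimulated response element (ISRE), GAAA then any 2 bases then GAAA, in 11 (68.8%). The shares over all 32851 promoters of the same length were 7.02% and 2.98%. Of 22 promoters of the type I interferon list described below, 4 (18.2%) held the GAS match and 9 (40.9%) the ISRE core. Among the 9 promoters of its genes called lower in WT these were 0 and 5 (55.6%). The ISRE core was thus not particular to genes higher in WT. In Igtp, Irgm2, Tgtp1 and Tgtp2 the GAS match began 11 bases before the ISRE match, with no overlap between them. The letters around this pair were nearly the same in Igtp and Irgm2, and in Tgtp1 and Tgtp2, so the shared spacing is not independent. Gm12250, Gbp5 and Gbp7 of the list held both matches at other spacings. Igtp, Irgm2 and Tgtp1 are shown because they carry the pair 11 bases apart. Ifit1 is shown because it carries the ISRE core alone and fell in WT. The 4 were chosen after these matches were seen. Each is written 5′ to 3′ along the gene's strand with matches in capitals, Igtp from chr11:58199306-58199555 (plus), Irgm2 from chr11:58214727-58214976 (plus), Tgtp1 from chr11:48992247-48992496 (minus) and Ifit1 from chr19:34640639-34640888 (plus).
Igtp: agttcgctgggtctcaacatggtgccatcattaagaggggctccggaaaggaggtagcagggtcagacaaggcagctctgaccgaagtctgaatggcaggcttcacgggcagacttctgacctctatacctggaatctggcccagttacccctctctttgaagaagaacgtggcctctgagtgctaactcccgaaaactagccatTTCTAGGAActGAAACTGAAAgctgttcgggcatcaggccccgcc
Irgm2: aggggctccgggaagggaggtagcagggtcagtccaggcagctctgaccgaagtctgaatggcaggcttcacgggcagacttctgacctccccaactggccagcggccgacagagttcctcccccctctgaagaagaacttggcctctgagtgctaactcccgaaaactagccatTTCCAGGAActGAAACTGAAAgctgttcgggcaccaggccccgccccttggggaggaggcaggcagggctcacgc
Tgtp1: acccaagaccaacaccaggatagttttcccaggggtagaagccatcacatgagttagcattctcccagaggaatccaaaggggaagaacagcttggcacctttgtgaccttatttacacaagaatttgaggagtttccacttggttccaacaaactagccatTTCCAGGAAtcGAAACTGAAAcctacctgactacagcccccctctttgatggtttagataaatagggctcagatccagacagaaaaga
Ifit1: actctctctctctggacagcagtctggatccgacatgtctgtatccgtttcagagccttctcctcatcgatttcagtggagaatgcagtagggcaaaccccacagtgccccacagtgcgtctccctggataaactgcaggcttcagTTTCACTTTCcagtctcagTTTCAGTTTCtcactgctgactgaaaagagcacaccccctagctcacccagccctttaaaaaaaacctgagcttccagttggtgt

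The pair of matches began 45 bases before the start in Igtp, 75 in Irgm2 and 88 in Tgtp1. In Ifit1 the matches, which lie on the other strand and read TTTC, any 2 bases, TTTC here, began 104 and 85 bases before the start. Tgtp1, a T cell-specific GTPase by name, read 1636, 1818 and 1736 in WT and 389, 370.5 and 421 in Pfp/Rag2-/- (log2 difference 2.13 ± 0.09 SE, adjusted p = 4.01e-05). All 25 genes tested of the interferon gamma response list were higher in WT, so the rise of the 3 shown followed from the choice of list. Gbp2, with the ISRE core and no GAS match, and Ubd, with neither, were higher as well. A match describes letters and was not tested as a binding site.

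Of 16 interferon signalling genes and transcription factors 8 were higher in WT and none lower, 5 without WT library 3, with a median of 0.30. Irf1, a transcription factor that interferon gamma induces, read 7081, 8120.3 and 7468 in WT and 1391, 1417 and 1467 in Pfp/Rag2-/- (log2 difference 2.40 ± 0.08 SE, adjusted p = 1.53e-05). Socs1, the feedback inhibitor of Jak signalling, read 946, 1296 and 1039.7 in WT and 100.4, 122 and 112 in Pfp/Rag2-/- (log2 difference 3.27 ± 0.15 SE, adjusted p = 7.06e-05). Both stood at least 2-fold higher in every WT library than in any Pfp/Rag2-/- library. The receptor subunit Ifngr1 read 960.4, 1131 and 1162 in WT and 1115, 1102 and 1119.8 in Pfp/Rag2-/- (log2 difference -0.04 ± 0.09 SE, adjusted p = 0.76). Jak1, the kinase bound to it, read 1761, 1931 and 1855 in WT and 2020.2, 1872 and 1975 in Pfp/Rag2-/- (log2 difference -0.08 ± 0.07 SE, adjusted p = 0.421). The hosts overlapped in both, and neither was called.

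Type I interferon-stimulated genes went in both directions, mostly down. Of 30 tested, 14 were lower in WT and 3 higher, with a median of -0.37; without WT library 1 the counts were 14 lower and 6 higher, by DESeq2 5 were higher, without Pfp/Rag2-/- library 2 10 and 3, and without both WT library 3 and Pfp/Rag2-/- library 1 7 and 1. Oas2, which senses double-stranded RNA, read 273, 332 and 326 in WT and 1001, 1225 and 1429 in Pfp/Rag2-/- (log2 difference -1.96 ± 0.15 SE, adjusted p = 0.000272). Ifit1, which binds viral RNA, read 2109.9, 1627 and 1688 in WT and 3913, 3885 and 3505 in Pfp/Rag2-/- (log2 difference -1.07 ± 0.11 SE, adjusted p = 0.000887). Irf7, the factor that amplifies type I interferon, read 1861, 2276 and 2729.8 in WT and 4499, 4743 and 4655 in Pfp/Rag2-/- (log2 difference -1.03 ± 0.13 SE, adjusted p = 0.00195). The Pfp/Rag2-/- libraries lay above the WT libraries in all 3. Isg15, a ubiquitin-like modifier, was lower by a smaller amount, 2697, 2471 and 2927 in WT and 3638, 3654 and 3765 in Pfp/Rag2-/- (log2 difference -0.45 ± 0.08 SE, adjusted p = 0.00674). The 3 higher genes were Ifi204, Bst2 and Zbp1. Ifi204, a DNA sensor, read 1124, 997 and 1055 in WT and 238, 282 and 288 in Pfp/Rag2-/- (log2 difference 1.97 ± 0.11 SE, adjusted p = 8.16e-05). Bst2, tetherin, which also stands among the dendritic cell genes, read 11837, 12961 and 15352 in WT and 8637, 8566 and 8364 in Pfp/Rag2-/- (log2 difference 0.64 ± 0.11 SE, adjusted p = 0.00596). Zbp1, a nucleic acid sensor of cell death, read 2974, 2114 and 2432 in WT and 1586, 1548 and 1669 in Pfp/Rag2-/- (log2 difference 0.63 ± 0.12 SE, adjusted p = 0.00947). None of the 30 stood at least 4-fold higher in GFP+ than in GFP- cells of WT tumours, and 5 did in the other direction. In sorted GFP+ cells the median host difference of the 30 was -0.12, and by limma none of the 30 was called for a host effect that differed from that in unsorted tumours, while 10 had an unadjusted p under 0.05.

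**Figure D3:**
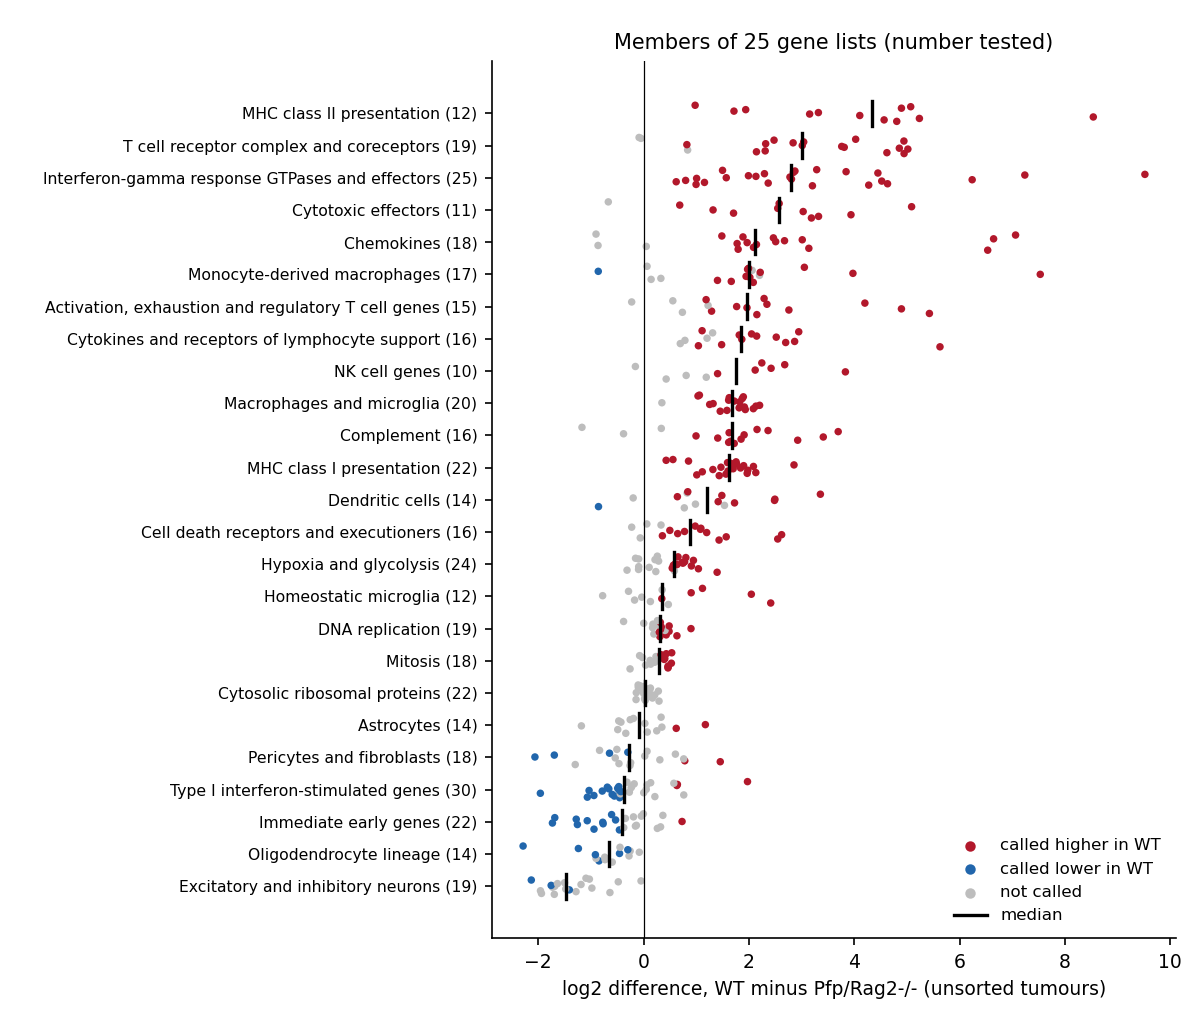
Each row is a gene list with its number of genes tested, and each point is the log2 difference of 1 gene, WT minus Pfp/Rag2-/-. Red points were called higher in WT, blue lower, grey not called, and the black bar is the median. All points of the MHC and interferon gamma lists are red, and the type I interferon list is mostly blue and grey.

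Chemokines were mostly higher. Of 18 tested, 15 were higher in WT and none lower, with a median of 2.12; 3 passed through WT alone, and 15 of the 18 stood at least 4-fold higher in GFP- cells. Cxcl11, which with Cxcl9 and Cxcl10 makes up the ligands of Cxcr3, read 87.6, 112 and 99.3 in WT and 12.4, 9.06 and 9.92 in Pfp/Rag2-/- (log2 difference 3.14 ± 0.24 SE, adjusted p = 0.000277). Cxcl10 read 2934, 4009.8 and 2983 in WT and 955, 898 and 975 in Pfp/Rag2-/- (log2 difference 1.80 ± 0.13 SE, adjusted p = 0.000205). Both were at least 2-fold higher in every WT library. Ccl5, made by T cells and macrophages, read 256, 459 and 556 in WT and 74.6, 66.1 and 69.4 in Pfp/Rag2-/- (log2 difference 2.51 ± 0.28 SE, adjusted p = 0.0011). Ccl2, which recruits monocytes, read 196, 135 and 119 in WT and 46.2, 28.1 and 26.1 in Pfp/Rag2-/- (log2 difference 2.14 ± 0.29 SE, adjusted p = 0.00243). The hosts did not overlap in these 4. Of the receptors, 7 of 9 tested were higher and 1, the endothelial decoy Ackr1, was lower, a call lost in 5 of 6 fits that each left out 1 library, Pfp/Rag2-/- library 2 among them. Cxcr6, the receptor of Cxcl16 on T cells, read 19.4, 40.5 and 73.1 in WT and 1.78, 9.06 and 4.51 in Pfp/Rag2-/- (log2 difference 2.89 ± 0.62 SE, adjusted p = 0.0133). Ccr1, on monocytes, read 409, 529 and 545 in WT and 74.6, 71.6 and 124 in Pfp/Rag2-/- (log2 difference 2.48 ± 0.24 SE, adjusted p = 0.00063). WT library 3 was the highest of all 6 for both.

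Ligands that restrain or help T cells were split. Of 17 tested, 8 were higher and none lower, 4 in the fit of all 18 libraries, and 1 passed through WT alone. Cd274 (PD-L1) read 1130.2, 1621 and 1537 in WT and 208, 192 and 207 in Pfp/Rag2-/- (log2 difference 2.80 ± 0.15 SE, adjusted p = 7.06e-05). Pdcd1lg2 (PD-L2), the other ligand of PD-1, read 87.6, 38.7 and 75.8 in WT and 0.888, 0.906 and 1.8 in Pfp/Rag2-/- (log2 difference 4.90 ± 0.41 SE, adjusted p = 0.000369). Cd86, which costimulates through CD28, read 197, 267 and 310.0 in WT and 87.1, 64.3 and 72.1 in Pfp/Rag2-/- (log2 difference 1.77 ± 0.21 SE, adjusted p = 0.00151). The WT libraries lay above the Pfp/Rag2-/- libraries in all 3. Cd276 (B7-H3) was not called, at 1766, 2341 and 2336 in WT and 1935, 1950.3 and 2214 in Pfp/Rag2-/- (log2 difference 0.07 ± 0.13 SE, adjusted p = 0.704). Cd47, the signal that inhibits phagocytosis, was not called either, at 4587, 4703 and 4798 in WT and 3923, 4236 and 4351 in Pfp/Rag2-/- (log2 difference 0.17 ± 0.07 SE, adjusted p = 0.115).

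Of 16 tested cytokine and receptor genes of lymphocyte support, 12 were higher and none lower, 7 in the fit of all 18 libraries; 2 of the 16 passed the filter through WT alone. Il1b, interleukin 1 beta, read 178, 269 and 360.5 in WT and 33.8, 25.4 and 40.6 in Pfp/Rag2-/- (log2 difference 2.95 ± 0.30 SE, adjusted p = 0.000795). Il18bp, the decoy that binds interleukin 18, read 895, 1412 and 1440.2 in WT and 177, 180.3 and 144 in Pfp/Rag2-/- (log2 difference 2.87 ± 0.20 SE, adjusted p = 0.000193). Il15, which sustains NK and memory T cells, read 266, 271 and 289 in WT and 143, 126 and 131 in Pfp/Rag2-/- (log2 difference 1.04 ± 0.12 SE, adjusted p = 0.00144). Of 16 complement genes 13 were higher and none lower, with 1 lower by DESeq2, with a pseudocount of 10, in the fit of all 18 libraries and without WT library 1. Serping1, the inhibitor of the first complement component, read 891, 1216 and 1489 in WT and 117, 71.6 and 85.7 in Pfp/Rag2-/- (log2 difference 3.70 ± 0.24 SE, adjusted p = 0.000144). C3, the central component, read 1000.1, 1712 and 2445 in WT and 190.1, 136 and 132 in Pfp/Rag2-/- (log2 difference 3.41 ± 0.31 SE, adjusted p = 0.000521). Of the complement genes, 3 stood at least 4-fold higher in GFP+ and 10 in GFP- cells. Among genes of arginine and tryptophan use, 6 of 9 tested were higher and 1, the arginine transporter Slc7a1, lower, at 6814, 6038 and 6242 in WT and 7808, 8038 and 10167 in Pfp/Rag2-/- (log2 difference -0.44 ± 0.12 SE, adjusted p = 0.0313). Its call was lost without any 1 of WT libraries 2 and 3 and Pfp/Rag2-/- libraries 2 and 3, and with the replicate number as a block. Nos2, which makes nitric oxide from arginine, read 55.4, 66.6 and 60.1 in WT and 8.88, 12.7 and 13.5 in Pfp/Rag2-/- (log2 difference 2.30 ± 0.26 SE, adjusted p = 0.00117). Kynu, the kynureninase of tryptophan breakdown, read 35.1, 43.2 and 32.2 in WT and 5.33, 5.43 and 11.7 in Pfp/Rag2-/- (log2 difference 2.23 ± 0.36 SE, adjusted p = 0.00456). Arg1 and Nos2, which use the same substrate, both stood higher in every WT library. Of 16 death genes, 12 were higher and none lower, and 7 without both WT library 3 and Pfp/Rag2-/- library 1. Casp1, the caspase of inflammasomes, read 545, 676 and 688 in WT and 73.7, 112 and 128 in Pfp/Rag2-/- (log2 difference 2.62 ± 0.22 SE, adjusted p = 0.00038). Tnfsf10 (TRAIL), a death ligand, read 329, 719.7 and 609.5 in WT and 177, 175 and 177 in Pfp/Rag2-/- (log2 difference 1.57 ± 0.27 SE, adjusted p = 0.00585). Neither overlapped between hosts.

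The fraction in which a gene stood higher was set beside the host difference, as a description. In WT tumours 15.6% of the genes tested were at least 4-fold higher in GFP- and 13.2% in GFP+ cells. Of the 936 genes at least 2-fold higher in WT tumours, 621 (66.3%) stood at least 4-fold higher in GFP- and 123 (13.1%) in GFP+ cells. Of the 619 at least 2-fold lower, 79 (12.8%) stood higher in GFP- and 199 (32.1%) in GFP+ cells. These shares describe the called genes and carry no test. Sorted GFP- cells of Pfp/Rag2-/- tumours were not analysed here.

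**Figure D4:**
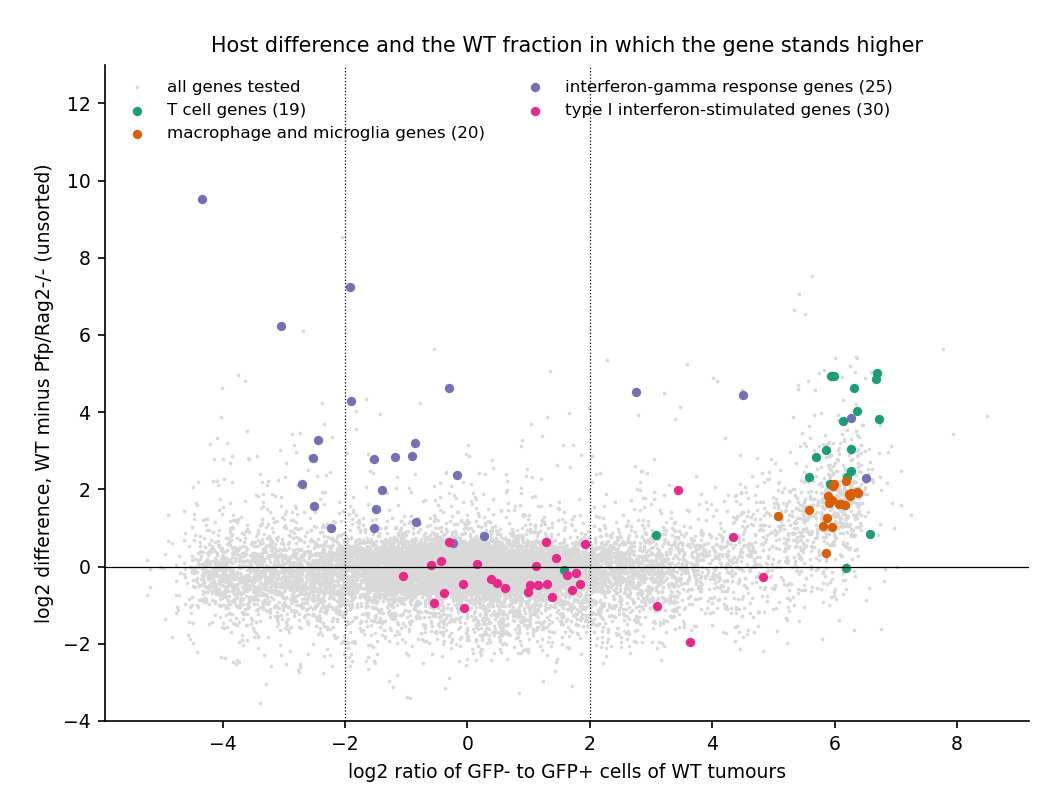
For each gene, the x axis is the log2 ratio of GFP- over GFP+ cells in WT tumours and the y axis the log2 difference between hosts in unsorted tumours; dotted lines mark 4-fold on the x axis. Coloured points are the genes of 4 lists. T cell (19) and macrophage (20) genes lie to the right, interferon gamma genes (25) lie high on both sides, and type I genes (30) lie around and below 0.

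Stromal and brain genes differed in fewer members. Over all genes tested 15.1% were higher in WT and 14.8% lower. Endothelial genes were higher in 7 of 21 tested and lower in 1 (0 in the fit of all 18 libraries), with a median of 0.48. Ly6a (Sca-1), an endothelial gene that leukocytes also carry, read 4259.5, 6757 and 7478 in WT and 444, 342 and 438 in Pfp/Rag2-/- (log2 difference 3.88 ± 0.22 SE, adjusted p = 8.63e-05). Vcam1, an adhesion molecule for leukocytes, read 1298, 925 and 992 in WT and 410.4, 273 and 303 in Pfp/Rag2-/- (log2 difference 1.71 ± 0.19 SE, adjusted p = 0.00104). Slco1a4, a transporter of the blood-brain barrier, read 96.9, 93.6 and 74.9 in WT and 303, 206 and 216 in Pfp/Rag2-/- (log2 difference -1.43 ± 0.20 SE, adjusted p = 0.00261). The adhesion gene was higher and the transporter lower. Of 18 pericyte and fibroblast genes, 2 were higher and 4 lower. In the fit of all 18 libraries they were 0 and 2. Left out, Pfp/Rag2-/- library 2 took the first count to 0, WT library 2 took the second to 1 and each Pfp/Rag2-/- library took it to 2. Col1a1, a chain of fibrillar collagen, read 354, 449.8 and 319 in WT and 1684, 938 and 1096 in Pfp/Rag2-/- (log2 difference -1.69 ± 0.23 SE, adjusted p = 0.00223). Dcn, Lum and Col1a1, for fibroblasts, summed to 376, 474 and 383 in WT and 1826, 1029 and 1165 in Pfp/Rag2-/-. The same markers summed to 2225 in cultured GL261 cells, and to 489 in GFP+ and 408 in GFP- cells of WT tumours (means). Their sum is thus not particular to fibroblasts here. Pdgfrb and Rgs5, for pericytes, summed to 339, 963 and 1110.2 in WT and 1275, 1342 and 2158 in Pfp/Rag2-/-. Both sums were higher in every Pfp/Rag2-/- library. Matrix genes went both ways, 5 of 27 higher and 4 lower, which is near the shares over all genes tested. The counts were 11 higher by DESeq2 or without WT library 1, 9 higher without WT library 2, and 2 lower without any 1 of WT library 3 and Pfp/Rag2-/- libraries 1 and 2. Col6a1, a chain of collagen VI, read 431, 414 and 486 in WT and 1265, 1175 and 1113 in Pfp/Rag2-/- (log2 difference -1.42 ± 0.10 SE, adjusted p = 0.000171). Col6a2, another of its chains, read 84.9, 90.9 and 112 in WT and 368, 322 and 309 in Pfp/Rag2-/- (log2 difference -1.79 ± 0.16 SE, adjusted p = 0.00044). Both were lower in every WT library. Mmp13, a collagenase, read 1662, 729.6 and 641 in WT and 50.6, 19.9 and 32.5 in Pfp/Rag2-/- (log2 difference 4.80 ± 0.44 SE, adjusted p = 0.000512). Fn1, fibronectin, read 7286, 18309.9 and 15517 in WT and 2814, 3036 and 3977 in Pfp/Rag2-/- (log2 difference 1.98 ± 0.33 SE, adjusted p = 0.00512). The collagenase and fibronectin were higher in every WT library.

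No gene of the oligodendrocyte lineage was higher in WT and 6 of 14 were lower, with a median of -0.66 and 4 to 7 lower with 1 library left out and 3 in the fit of all 18 libraries. Opalin, a myelin membrane protein, read 19.4, 23.4 and 30.5 in WT and 94.2, 166 and 114 in Pfp/Rag2-/- (log2 difference -2.29 ± 0.28 SE, adjusted p = 0.00167). Cspg4 (NG2), of oligodendrocyte precursors and pericytes, read 3189, 3391 and 3335 in WT and 6719.8, 7780.3 and 9032 in Pfp/Rag2-/- (log2 difference -1.24 ± 0.11 SE, adjusted p = 0.000512). Both were lower in each WT library than in each Pfp/Rag2-/- library. Mbp and Mog, of myelin, summed to 3135, 2619.8 and 4136 in WT and 7737, 4342 and 3542 in Pfp/Rag2-/-, and WT library 3 lay above Pfp/Rag2-/- library 3. In cultured GL261 cells they summed to 24828 (mean), above every tumour library, so this sum is not particular to oligodendrocytes. Cultured GL261 cells also read Cspg4, at 3068 ± 116 (SD, n = 3), and in sorted GFP+ cells it was lower in WT as well (log2 difference -1.19 ± 0.08 SE, adjusted p = 0.000254). Of 19 neuronal genes tested 3 were lower and none higher, where 14.8% of all genes tested were lower. The count was 0 lower when any 1 of libraries 1 and 2 of either host was left out, 1 lower with no filter or a pseudocount of 10, 6 by quantile normalization and 11 by DESeq2. It was 4 without WT library 3, 8 without both WT library 3 and Pfp/Rag2-/- library 1, and 0 with the replicate number as a block. Rbfox3, Snap25 and Slc17a7, which define neurons, summed to 229, 166 and 438 in WT and 2738, 620.5 and 521 in Pfp/Rag2-/-, and Pfp/Rag2-/- library 1 stood far above the others. Foxj1 and Ttr, for ependyma and choroid plexus, summed to 88.6, 93.6 and 5197 in WT and 7609, 2367 and 56.8 in Pfp/Rag2-/-. The neuron and choroid plexus sums moved with single libraries, and their part in the host differences was not tested.

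**Figure D5:**
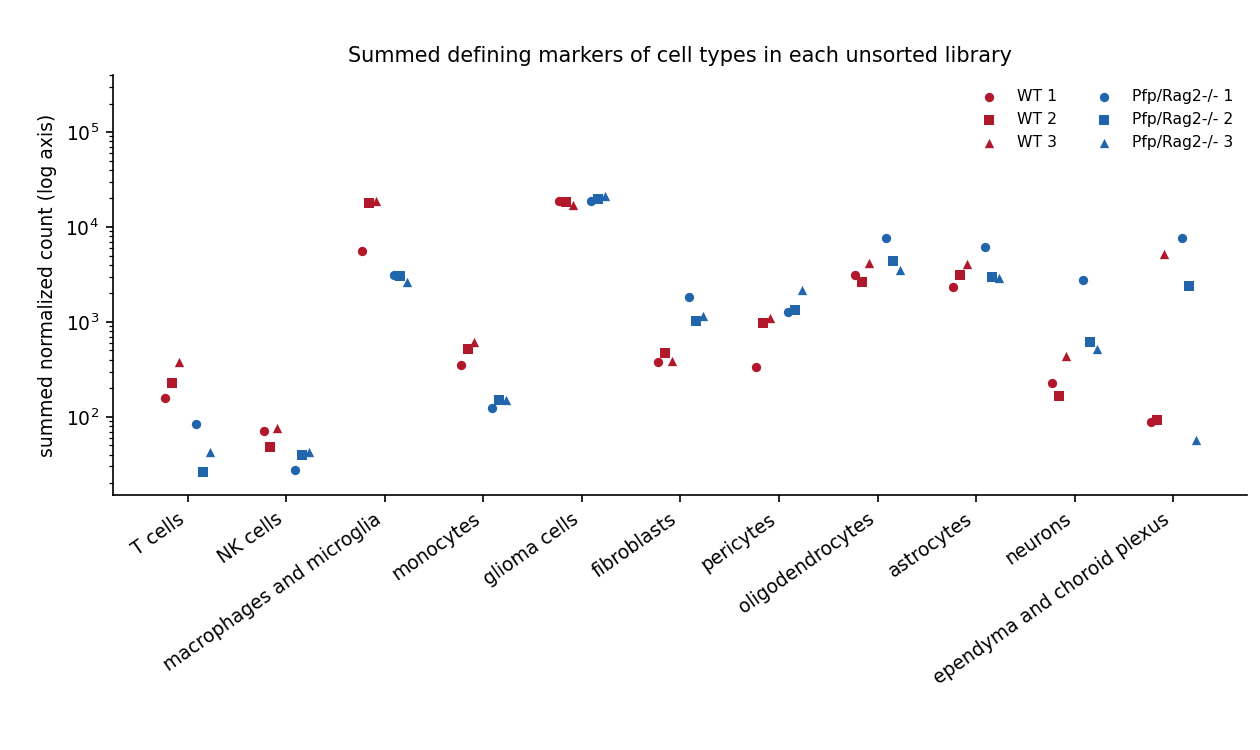
Summed normalized count of the defining markers of 11 cell types in each unsorted library, on a log axis, WT in red and Pfp/Rag2-/- in blue; circle, square and triangle are libraries 1, 2 and 3. T cell, monocyte and macrophage sums are higher in every WT library, neuron and fibroblast sums higher in every Pfp/Rag2-/- library, the oligodendrocyte sums overlap, and the choroid plexus sums are scattered over both hosts. Tmem119 is a large part of the macrophage sum and was read in GFP+ as well as GFP- cells of WT tumours, so this sum may not be particular to macrophages and microglia. Cultured GL261 cells also read the fibroblast and oligodendrocyte markers, so these sums are not particular to those cell types.

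Growth and metabolism genes differed by small amounts. Of 18 mitosis genes 9, and of 19 DNA replication genes 11, were higher in WT and none was lower, with medians of 0.28 and 0.32. With 1 library left out the counts were 2 (without Pfp/Rag2-/- library 2) to 12 and 5 (without any 1 of WT library 3 and Pfp/Rag2-/- libraries 1 and 2) to 13, and without both WT library 3 and Pfp/Rag2-/- library 1 they were 0 and 2. In the fit of all 18 libraries 1 mitosis gene was higher. Mcm3, of the replicative helicase, read 3438, 3900.0 and 3764 in WT and 2479, 2189 and 2487 in Pfp/Rag2-/- (log2 difference 0.63 ± 0.09 SE, adjusted p = 0.00226). Gins1, a helicase cofactor, read 548, 531 and 535 in WT and 302, 289.9 and 271 in Pfp/Rag2-/- (log2 difference 0.90 ± 0.09 SE, adjusted p = 0.000835). Neither overlapped between hosts. Of 24 hypoxia and glycolysis genes 13 were higher and none lower, 8 without Pfp/Rag2-/- library 2. Hk2, hexokinase, read 1058, 1692 and 1502 in WT and 781, 638 and 618 in Pfp/Rag2-/- (log2 difference 1.04 ± 0.18 SE, adjusted p = 0.0061). Ldha, lactate dehydrogenase, read 18894, 18115 and 17152 in WT and 11044, 9521 and 11017 in Pfp/Rag2-/- (log2 difference 0.78 ± 0.10 SE, adjusted p = 0.00195). The differences were near 1 doubling or below, and the hosts did not overlap for these 4 genes. By limma no ribosomal protein gene of 22 was called, with a median of 0.04; 1 had an unadjusted p under 0.05, edgeR called 0 and DESeq2 1. Without WT library 1 limma called 4 lower, with a median of -0.08, and the fit of all 18 libraries called 1 higher.

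Immediate early genes, which cells induce within minutes of a stimulus, were lower in WT in 11 of 22 and higher in 1, Ier3, whose call was lost without Pfp/Rag2-/- library 1 or 2. The median was -0.42. The count lower was 7 without WT library 3, 6 without Pfp/Rag2-/- library 2 or 3, and 4 without both WT library 3 and Pfp/Rag2-/- library 1. Klf4, a Krüppel-like factor, read 566, 268 and 309 in WT and 1134, 1153 and 1199 in Pfp/Rag2-/- (log2 difference -1.69 ± 0.26 SE, adjusted p = 0.00345). Egr1, a zinc finger factor, read 1285, 1190.2 and 996 in WT and 2353, 3227 and 2736 in Pfp/Rag2-/- (log2 difference -1.26 ± 0.14 SE, adjusted p = 0.00112). Fosb, of the AP-1 complex, read 101, 86.4 and 87.1 in WT and 190.1, 170.3 and 168 in Pfp/Rag2-/- (log2 difference -0.94 ± 0.15 SE, adjusted p = 0.0042). The 3 WT libraries lay below the 3 Pfp/Rag2-/- libraries for each. Levels of Fosb were far higher after sorting, 18729.5 ± 7546 in GFP+ and 78604 ± 3193 in GFP- cells of WT tumours (SD, n = 3 each).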

How the data were processed

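RNA was sequenced from unsorted cells of GL261 tumours, 3 libraries from WT and 3 from Pfp/Rag2-/- mice, grouped by the titles and genotypes in the labels. The deposited values are a signal, which the authors obtained by dividing each gene's reads by a size factor; per the submitters' processing notes STAR 2.5.2b, DESeq2 and GRCm38 were used. The sources used here do not give the read counter or how it treated strand and multimapping reads. Divided by each library's smallest step, all values came out as whole reads (tolerance 0.05), and these reads were used for the count-based alternatives. Gene symbols and coordinates came from GENCODE vM21 (48435 of 48795 genes named), and promoters from RefSeq (GRCm38.p6).

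Genes reaching 10 in 3 or more of the 6 libraries were kept, and log2(normalized count + 1) was fitted with limma 3.58.1 (lmFit, eBayes with trend, two-sided) in R 4.3.3. Calls were made where the Benjamini-Hochberg adjusted p was under 0.05. The host effect in unsorted tumours was tested against that in sorted GFP+ cells as an interaction over 12 libraries. On simulated data with 200 changed genes among 15248, the fit recovered 72% of 2-fold and 95% of 4-fold changes with 11 false calls. Ratios with few reads have 95% intervals that cover counting error only, since PCR copies are not independent molecules.

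Named were the 10 called genes with the highest and the 10 with the lowest log2 difference among those averaging 100 or more in the host where they stood higher, with no overlap between hosts and a proper symbol, up to 3 called members in each direction of each of 44 gene lists, other members of these lists given with their values, and cell type markers. The comparison and the lists were chosen with earlier results of these data known. On the recovered reads, alternatives were DESeq2 1.42.0 and the quasi-likelihood test of edgeR 4.0.16. Alternatives on the deposited values were TMM factors or quantile normalization, a pseudocount of 10, no filter or one at 50, robust eBayes, 1 fit over all 18 libraries, the replicate number as a block, and dropping each library in turn. Leaving out both WT library 3 and Pfp/Rag2-/- library 1, the highest in choroid plexus RNA, was added after seeing the data. Single values of 3 genes are not reported here, and 2 of these genes were left out of the marker sums.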

Additional observations from a re-analysis of the deposited data

Results flagged for a closer look

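For 4 of the genes named above, the host effect in unsorted tumours differed from the host effect in sorted GFP+ cells by limma's test of that difference, which called 151 of 16161 genes (0.934%). The effect of Mmp13 was larger in unsorted tumours, by 4.19 ± 0.83 SE on the log2 scale, adjusted p = 0.0451, and in sorted GFP+ cells it was 0.61 ± 0.60 SE. Fosb was lower in WT in unsorted tumours, against 0.95 ± 0.31 SE in sorted GFP+ cells, a difference of -1.89 ± 0.35 SE on the log2 scale, adjusted p = 0.0394. Egr1 was lower in WT in unsorted tumours too, with 0.05 ± 0.17 SE in sorted GFP+ cells and a difference of -1.31 ± 0.24 SE on the log2 scale, adjusted p = 0.0381. Col6a2 was lower in WT in both, and more so in sorted GFP+ cells (-3.02 ± 0.12 SE), with a difference of 1.22 ± 0.19 SE on the log2 scale, adjusted p = 0.0265. By the same test no gene was so called without Pfp/Rag2-/- unsorted library 2 (2642 with an unadjusted p under 0.05) or without Pfp/Rag2-/- sorted library 1 (2663).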

How the results depend on the processing

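The counts of genes higher and lower in WT (2326 and 2294) stayed within 1.5 times under every change of pseudocount, filter, scaling, fit and tool tried, at 2564 and 2018 with TMM factors and 2829 and 2425 with DESeq2, but not when libraries were left out. With 1 library left out they ranged from 1297 to 3050 and from 983 to 3092, and for differences of at least 2-fold from 762 to 1027 and from 371 to 663; Pfp/Rag2-/- library 2 gave the lowest count each time. Without both WT library 3 and Pfp/Rag2-/- library 1 they were 939 and 922. The number of genes whose host effect differed between unsorted and sorted GFP+ cells, 151, was 298 with a filter at 50 and ranged from 0 to 1105 with 1 library left out. The causes were not tested. Same-numbered libraries of the hosts did not deviate together (r = -0.22, 0.11 and -0.41). No pairing by number was thus visible, but deviations from a mean of 3 libraries cannot exclude one. With the replicate number as a block the counts were 1853 and 1698 (869 and 492 at least 2-fold, 133 for the differing effect). Of 107 named genes called, 88 kept their call and direction under every alternative that tested them. The filter at 50 left named genes with few reads untested. With it 3 genes of the T cell receptor list were called higher, against 16 in the main fit. Of the B and plasma cell genes 0 were, against 4. Besides fits that left out 1 library, calls ended in the fit of all 18 libraries, for Ackr1, Ccr7, Cd86, Gzma, Ier3, Klrc1, Prf1 and Slco1a4, and the fit without both WT library 3 and Pfp/Rag2-/- library 1, for Bst2, Ccr7, Cxcr6, Foxp3, Gbp7, Ier3, Isg15, Lck, Slc7a1, Tmem119, Vcan, Zbp1 and Zbtb46; that of Ackr1 also ended with edgeR, no filter and the replicate block, and that of Slc7a1 with the block. Among genes not called, Cd276 turned to -0.03 without those libraries and Ifngr1 lay between -0.09 and 0.04 with 1 library left out. With 3 libraries a host, differences near 2-fold were missed more often than larger ones on simulated data, and genes with a few reads have wide intervals.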

Other observations

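The clustered beta protocadherins, adhesion proteins best known from neurons, were looked at as a family because Pcdhb9, Pcdhb10 and Pcdhb11 stood among the 10 genes with the largest fall in WT; the family was chosen after these values were seen. Of 20 members tested, 19 were lower in WT and none was higher, with a median log2 difference of -1.75 and a range from -3.13 to -0.75. Pcdhb9 read 22.1, 9.0 and 6.97 in WT and 103, 119 and 97.4 in Pfp/Rag2-/-. In sorted cells of WT tumours 13 of the 20 stood at least 4-fold higher in GFP+ cells and none in GFP- cells. The members are near-identical copies, so their counts are not independent of each other.

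Ifng had no read in unsorted Pfp/Rag2-/- tumours but was read in their sorted GFP+ cells, at 149, 0.918 and 3.68 in libraries 1, 2 and 3. Gzmb stood at 711, 27.6 and 17.5 in the same libraries, and Cd3e, a T cell receptor gene, at 0.913, 0 and 1.84. In sorted GFP+ cells of WT tumours Ifng read 63.2, 1.9 and 9.21, Gzmb 817, 36.1 and 93 and Cd3e 33.5, 1.9 and 5.53. Library 1 was the highest of its host for Ifng and Gzmb in both, while Cd3e was high only in WT library 1. The 3 genes stood at 1455 ± 471, 20995 ± 7108 and 1173 ± 240.0 in sorted GFP- cells of WT tumours (SD, n = 3 each).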
